A study of Mus musculus with 12 samples.

Results

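The ErbB receptors are a family of 4 receptor tyrosine kinases, encoded in the mouse by Egfr, Erbb2, Erbb3 and Erbb4. Each was read from the locus of the deposited expression table that carries its symbol, which gave 4 members among 33864 loci, with 1 locus per gene. The table holds RNA levels in subcortical white matter of 12 mice, with 1 library per mouse and 3 mice in each of 4 groups. The dnEGFR mutants carried Sox10-tTA and TRE-dnEGFR, and their control littermates carried TRE-dnEGFR alone. Both of these groups were given doxycycline between postnatal days 21 and 35, and their tissue was taken at day 35. The ErbB2V664E mutants carried Sox10-tTA and TRE-ErbB2V664E, their control littermates carried TRE-ErbB2V664E alone, and for both the drug was given between days 21 and 30 and the tissue taken at day 30. Every animal thus had a TRE transgene and doxycycline, and no group carried the transactivator alone. Each mutant was matched by the labels to 1 littermate control, which makes 6 pairs. Each pair is called a litter below, but the pairing does not show whether some pairs shared a litter. Sox10 is a transcription factor of the oligodendrocyte lineage, and its regulatory sequence drives the transactivator tTA, whereas the RNA came from whole tissue. The labels do not say whether the drug turned the transgenes on or off.

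ErbB receptors sit in the cell membrane and signal as pairs through their intracellular kinase domains. EGFR (ErbB1) binds the EGF group of ligands, ErbB3 and ErbB4 bind neuregulins, and ErbB4 also binds some ligands of the EGF group. ErbB2 has no known soluble ligand and acts as the preferred partner of the others, while ErbB3 has little kinase activity of its own and depends on a partner. In the central nervous system EGFR is known from progenitors of the oligodendrocyte lineage and from glia, Erbb3 from the oligodendrocyte lineage, and Erbb4 above all from inhibitory interneurons. Valine to glutamate changes in the transmembrane part of ErbB2 activate it, and a dominant-negative EGFR is a form that pairs with its partners without passing on the signal.

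The coding sequence around the catalytic loop of the kinase domain shows how alike, and how distinguishable, the 4 genes are at the level of the sequenced RNA. Each line gives 72 bases, 5′ to 3′, from the GENCODE M21 transcript of the gene, and the capitals mark the 24 bases that encode the catalytic loop.
Egfr: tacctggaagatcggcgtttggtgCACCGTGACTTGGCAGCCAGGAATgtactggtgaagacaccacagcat
Erbb2: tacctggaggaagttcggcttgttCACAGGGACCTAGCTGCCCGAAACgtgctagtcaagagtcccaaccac
Erbb3: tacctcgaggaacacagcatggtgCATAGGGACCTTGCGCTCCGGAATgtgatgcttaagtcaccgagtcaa
Erbb4: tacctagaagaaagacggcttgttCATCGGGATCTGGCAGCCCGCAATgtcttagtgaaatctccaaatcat
Over this stretch Erbb2 was identical to Egfr at 63.9% of bases, Erbb3 at 62.5% and Erbb4 at 69.4%. The longest identical run between the transcripts of any 2 members was 22 bases, between Erbb2 and Erbb4, and the shortest of the 6 such maxima was 14 bases, between Egfr and Erbb3. The reads were 150 bases long, so no member shares a stretch of read length with another. The labels name neither the species nor the portion of the receptor that each transgene encodes, so the Egfr and Erbb2 levels do not check the genotypes.

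Levels are in FPKM, fragments scaled to transcript length and library size, so genes can be set side by side. Changes are differences of log2(FPKM + 1) between group means, tested with limma over 13803 loci, which reached 1 FPKM in at least 3 libraries, and called at a Benjamini-Hochberg adjusted p under 0.05. On this scale a change at a low level comes out too small. Estimated depth ranged from 16596851 to 24821388 fragments per library. The tissue carried the markers its label calls for: summed over 9 mature oligodendrocyte genes, among them Mbp, Mog and Mag, the level was 701 to 1882 FPKM in the 12 libraries. It also held other cells, with 8 interneuron markers at 264 to 381 FPKM and 8 striatal neuron markers at 111 to 378 FPKM. Peripheral Schwann cell genes (4) summed to 0.58 to 1.98 FPKM. The lines differed widely from each other: among the control mice, 20.0% of loci were called between dnEGFR controls and ErbB2V664E controls, with transgene, age and length of doxycycline treatment all differing. The predicted gene Gm28661 split completely by line, with 0 to 0.000146 FPKM in the dnEGFR line and 5589 to 6563 FPKM in the ErbB2V664E line. Neither the source of this split nor any difference in library handling or processing between the lines was tested.

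Egfr stood at a low level in all groups, and its order over the groups followed the line first. The dnEGFR mutants had 2.85, 3.08 and 2.77 FPKM, and the dnEGFR controls had 2.64, 3.32 and 3.10 FPKM. These ranges overlap. The ErbB2V664E mutants had 1.50, 1.18 and 1.48 FPKM, and the ErbB2V664E controls had 2.01, 1.93 and 1.88 FPKM. Here all 3 mutants lay below all 3 controls, as did 8.96% of the loci tested in this line. The means were 2.90 ± 0.160 FPKM in dnEGFR mutants and 3.02 ± 0.348 FPKM in dnEGFR controls, and 1.39 ± 0.175 FPKM in ErbB2V664E mutants and 1.94 ± 0.0630 FPKM in ErbB2V664E controls (SD, n = 3 each). The order from high to low was thus dnEGFR controls, dnEGFR mutants, ErbB2V664E controls, ErbB2V664E mutants, and of these neighbours only the dnEGFR groups overlapped.

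The Egfr change was -0.04 (SE 0.09, adjusted p = 1) in the dnEGFR mutants and -0.30 (SE 0.09, adjusted p = 0.202, limma) in the ErbB2V664E mutants. Neither passed the test, and the difference between the effects, 0.26 (SE 0.13, adjusted p = 0.566), did not pass either. The mutant had the lower level in 5 of 6 litters, with mutant to control ratios of 0.614 to 1.08. Between the control groups Egfr was higher in dnEGFR controls than in ErbB2V664E controls by 0.45 (SE 0.09, adjusted p = 0.00731), where 9.12% of all loci were called in that direction and 10.9% in the other. The effect of line, transgene, age and doxycycline time cannot be told apart in this comparison.

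Erbb2, the partner receptor whose activated form the second line carries, had the lowest group means of the family and the lowest level in each library but those of 1 ErbB2V664E litter, where Erbb4 was lower. The dnEGFR mutants had 0.427, 0.605 and 0.500 FPKM, and the dnEGFR controls had 0.316, 0.529 and 0.457 FPKM. The ErbB2V664E mutants had 0.865, 0.833 and 0.894 FPKM, and the ErbB2V664E controls had 0.970, 0.960 and 0.772 FPKM. Mutants and controls overlapped in both lines, and every library of the dnEGFR line lay below every library of the ErbB2V664E line, as did 10.5% of the loci tested. Egfr showed the reverse, with every library of the dnEGFR line above every library of the ErbB2V664E line, as for 9.44% of the loci tested. No library reached 1 FPKM, so Erbb2 did not enter the main test, and its values rest on an estimated 29.2 to 106 fragments per library.

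Without the filter on low values, the Erbb2 change was 0.08 (SE 0.10, adjusted p = 1) in dnEGFR mutants and -0.03 (SE 0.10, adjusted p = 1) in ErbB2V664E mutants. The mutant was lower in 2 of 6 litters, with ratios of 0.868 to 1.35. In the same fit Erbb2 was lower in dnEGFR controls than in ErbB2V664E controls by -0.41 (SE 0.10, adjusted p = 0.0390). Its means were 0.511 ± 0.0894 FPKM in dnEGFR mutants and 0.434 ± 0.108 FPKM in dnEGFR controls, and 0.864 ± 0.0304 FPKM in ErbB2V664E mutants and 0.901 ± 0.112 FPKM in ErbB2V664E controls (SD, n = 3 each). The order from high to low was ErbB2V664E controls, ErbB2V664E mutants, dnEGFR mutants, dnEGFR controls, and the libraries of neighbouring groups overlapped except between the lines.

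**Figure D1:**
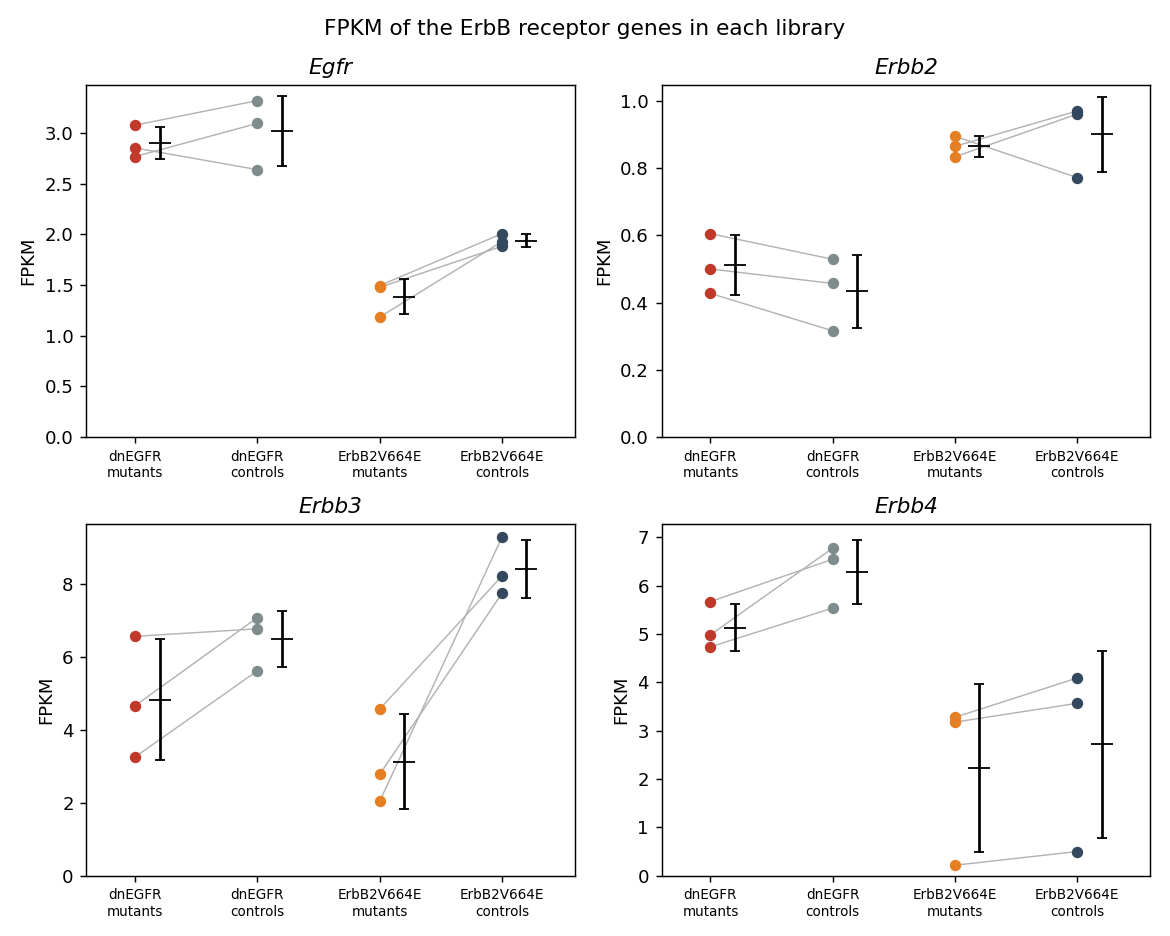
FPKM of the 4 receptor genes in each of 12 libraries, by group; grey lines join littermates, and bars give mean ± SD (n = 3 mice). Erbb3 in ErbB2V664E mutants (2.04 to 4.57 FPKM) lies below their controls (7.75 to 9.29 FPKM), and 1 ErbB2V664E litter is low for Erbb4 in both of its libraries.

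Erbb3, the neuregulin receptor of the oligodendrocyte lineage, showed the largest mutant to control difference of the 4 genes. The ErbB2V664E mutants had 4.57, 2.78 and 2.04 FPKM, and the ErbB2V664E controls had 8.23, 7.75 and 9.29 FPKM. All mutants lay below all controls, as at 8.96% of the loci tested in this line. The dnEGFR mutants had 6.57, 3.27 and 4.67 FPKM, and the dnEGFR controls had 6.78, 5.63 and 7.09 FPKM. There the groups overlapped, because the first mutant was close to its littermate. In all 6 litters the mutant had the lower Erbb3 level, which held for 2.55% of the loci tested. The mutant to control ratio was 0.970, 0.580 and 0.659 in the dnEGFR litters and 0.556, 0.359 and 0.220 in the ErbB2V664E litters.

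In the fit over all loci the Erbb3 change was -1.23 (SE 0.24) in ErbB2V664E mutants, with an unadjusted p of 0.000434 and an adjusted p = 0.0810 (limma), which did not pass. In dnEGFR mutants it was -0.40 (SE 0.24, adjusted p = 0.953), with -0.60 without mutant 1 and -0.19 without mutant 2. The difference between the effects, 0.84 (SE 0.34, adjusted p = 0.515), was not called, and nor was the mean of both effects, -0.81 (SE 0.17, adjusted p = 0.152). Without ErbB2V664E mutant 1, the mutant of that line with the highest Erbb3 level, the change was -1.47 (adjusted p = 0.0157) and the mean of both effects -0.93 (adjusted p = 0.0304), and 262 loci were called in that line. Over the alternative settings the adjusted p for Erbb3 ran from 0.0157 to 0.391 for the ErbB2V664E effect and from 0.0304 to 0.425 for the mean. The values rest on an estimated 269.8 to 1138 fragments per library.

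The Erbb3 means were 3.13 ± 1.30 FPKM in ErbB2V664E mutants and 8.43 ± 0.789 FPKM in ErbB2V664E controls, and 4.84 ± 1.66 FPKM in dnEGFR mutants and 6.50 ± 0.769 FPKM in dnEGFR controls (SD, n = 3 each). The order from high to low was ErbB2V664E controls, dnEGFR controls, dnEGFR mutants, ErbB2V664E mutants. The 2 control groups did not overlap, while dnEGFR mutants overlapped with both of their neighbours. The share of loci at which the control groups separate was not counted, and 20.0% of all loci were called between them. The control groups differed by -0.33 (dnEGFR controls minus ErbB2V664E controls, SE 0.24, adjusted p = 0.367), which did not pass.

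Genes of maturing and mature oligodendrocytes also lay lower in the same ErbB2V664E mutants. Mag, a myelin adhesion protein, averaged 44.5 ± 13.4 FPKM in ErbB2V664E mutants and 103 ± 14.6 FPKM in ErbB2V664E controls (SD, n = 3 each; change -1.22, adjusted p = 0.0449). Enpp6, which marks newly formed oligodendrocytes, fell by 1.04 on the log2 scale (adjusted p = 0.0464). Of the 9 mature oligodendrocyte markers, 9 had negative changes in this line and 1 was called, where 0.275% of all loci were called. Their median was -0.76, beside a median of 0.00 over all loci tested. Their sum was 701 to 1132 FPKM in ErbB2V664E mutants and 1152 to 1882 FPKM in ErbB2V664E controls. The newly formed markers (5) summed to 22.6 to 37.4 FPKM in ErbB2V664E mutants and 46.6 to 68.4 FPKM in ErbB2V664E controls, and the precursor markers (6) to 29.4 to 33.6 FPKM and 34.2 to 40.9 FPKM in the same order. Sox10 had 15.6 ± 0.795 FPKM in ErbB2V664E mutants and 26.4 ± 3.81 FPKM in ErbB2V664E controls (change -0.72, adjusted p = 0.399). The 4 lineage transcription factors that include it went the other way as a sum, at 66.6 to 82.4 FPKM in ErbB2V664E mutants and 30.5 to 38.9 FPKM in ErbB2V664E controls, although 3 of 4 changes were negative. The direction of this sum rests on Olig1, at 48.0 to 59.0 FPKM in ErbB2V664E mutants and listed at 0 in every ErbB2V664E control. Olig1 was also listed at 0 in every dnEGFR mutant and at 0 to 35.4 FPKM in dnEGFR controls, so the sum is not read as a change of the lineage. In bulk tissue, fewer cells of a type and less RNA per cell cannot be told apart.

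Marker sums of other cell types are given beside these values for the same line. Microglial markers (6 of 6 negative) summed to 37.0 to 66.5 FPKM in ErbB2V664E mutants and 63.5 to 85.5 FPKM in ErbB2V664E controls. Red blood cell genes (5 of 5 negative) summed to 22.1 to 118 FPKM in ErbB2V664E mutants and 95.5 to 214 FPKM in ErbB2V664E controls, and astrocyte markers (5 of 6 tested negative) to 199 to 230 FPKM in ErbB2V664E mutants and 239 to 417 FPKM in ErbB2V664E controls. Of these genes 0 were called (limma), with 5 microglial, 5 red blood cell and 2 astrocyte genes at an unadjusted p under 0.05. That level was reached by 1675 of the 13803 loci tested in this line. Choroid plexus genes varied within groups, from 10.1 to 627 FPKM in ErbB2V664E mutants and from 243 to 558 FPKM in ErbB2V664E controls. Neuron markers (1 of 7 negative) went the other way, at 564 to 613 FPKM in ErbB2V664E mutants and 445 to 545 FPKM in ErbB2V664E controls. So did endothelial markers (1 of 5 negative), at 38.0 to 39.0 FPKM and 24.8 to 34.8 FPKM in the same order. Among the latter, Cldn5 ranged from 0 to 11.4 FPKM in ErbB2V664E controls. In these 2 lists 0 genes were called or had an unadjusted p under 0.05 (limma). The part of these cell types in the receptor values was not tested.

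Set against lineage genes of the same library, the Erbb3 difference of the ErbB2V664E line was smaller. Relative to Sox10, the log2 difference of Erbb3 averaged -2.05 ± 0.37 in ErbB2V664E mutants and -1.53 ± 0.11 in ErbB2V664E controls (SD, n = 3 each), a difference of -0.51 (exact permutation p = 0.1, two-sided). The groups did not overlap, and 0.1 is the smallest p that 3 against 3 mice allow. Relative to the 9 mature oligodendrocyte markers it averaged -3.21 ± 0.55 in ErbB2V664E mutants and -2.78 ± 0.36 in ErbB2V664E controls, a difference of -0.42 (exact permutation p = 0.4) with overlapping groups. In the dnEGFR line the difference relative to these markers was -0.44, from -3.25 ± 0.35 in dnEGFR mutants and -2.81 ± 0.11 in dnEGFR controls (exact permutation p = 0.1), without overlap. Relative to Sox10 it was -0.40 (exact permutation p = 0.5), with overlap. Adjusted over these 4 tests the exact p-values were 0.2 to 0.5. Leaving out 1 library moved these differences to between -0.67 and -0.13 (mature markers) and between -0.72 and -0.35 (Sox10) in the ErbB2V664E line, and to between -0.59 and -0.25 and between -0.80 and -0.10 in the dnEGFR line. The smallest of each came without ErbB2V664E mutant 3 or dnEGFR mutant 2. Sox10 itself differed between the lines, at 8.28 ± 3.92 FPKM in dnEGFR controls and 26.4 ± 3.81 FPKM in ErbB2V664E controls (change -1.63, adjusted p = 0.00619), so levels relative to Sox10 are compared within a line only.

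**Figure D2:**
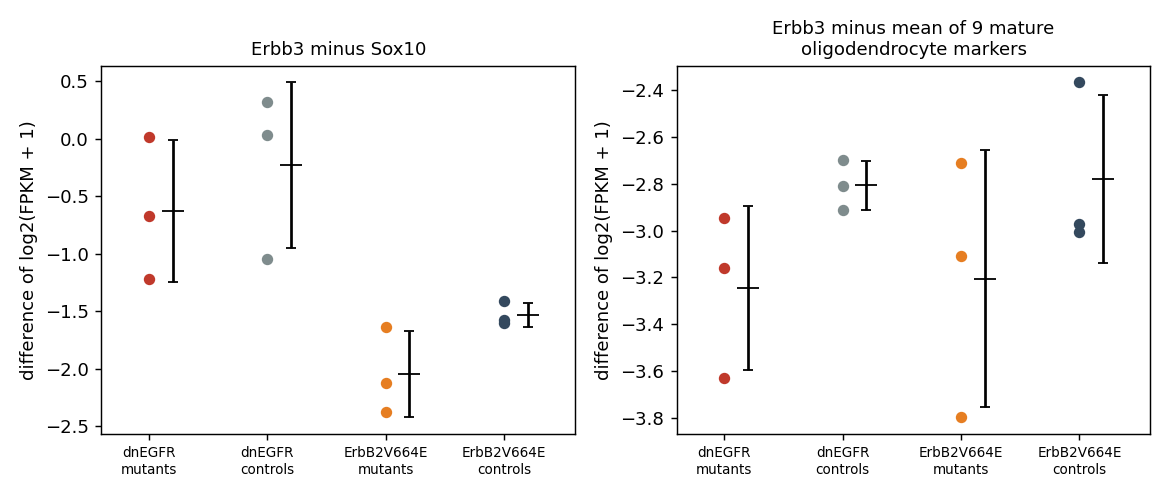
Difference of log2(FPKM + 1) between Erbb3 and Sox10 (left) and between Erbb3 and the mean of 9 mature oligodendrocyte markers (right), for each library; bars give mean ± SD (n = 3 mice). ErbB2V664E mutants lie below their controls relative to Sox10 and overlap with them relative to the mature markers.

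Erbb4, the neuregulin receptor best known from interneurons, was lower in the mutant of all 6 litters, as for 2.55% of the loci tested, and 1 litter stood apart. The dnEGFR mutants had 4.73, 4.98 and 5.67 FPKM, and the dnEGFR controls had 5.53, 6.77 and 6.54 FPKM. These groups overlapped slightly. The ErbB2V664E mutants had 3.28, 3.18 and 0.218 FPKM, and the ErbB2V664E controls had 4.09, 3.57 and 0.501 FPKM. The third mutant and its littermate were both far below the other 4 libraries of the line. Such a gap, with both libraries of a litter more than 1 log2 unit below all others of the line, occurred at 15 loci for this litter (0.109%) and at 13 to 19 loci for the other 5 litters.

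The Erbb4 change was -0.25 (SE 0.53, adjusted p = 1, limma) in dnEGFR mutants and -0.23 (SE 0.53, adjusted p = 0.911) in ErbB2V664E mutants, and the difference between the effects was -0.02 (SE 0.74, adjusted p = 0.995). Their mean, -0.24 (SE 0.37, adjusted p = 0.879), was not called. With the litter as a block the change had an SE of 0.09 in each line and 0.06 for the mean, and the adjusted p was 0.915 in dnEGFR mutants, 0.428 in ErbB2V664E mutants and 0.492 for the mean. The sign of the ErbB2V664E value turned when 1 library was left out: it was 0.37 without mutant 3, 0.09 without control 1 and 0.01 without control 2. The litter ratios of mutant to control were 0.855, 0.736 and 0.866 in the dnEGFR line and 0.801, 0.891 and 0.435 in the ErbB2V664E line. The Erbb4 means were 5.13 ± 0.484 FPKM in dnEGFR mutants and 6.28 ± 0.659 FPKM in dnEGFR controls, and 2.22 ± 1.74 FPKM in ErbB2V664E mutants and 2.72 ± 1.94 FPKM in ErbB2V664E controls (SD, n = 3 each). The order from high to low was dnEGFR controls, dnEGFR mutants, ErbB2V664E controls, ErbB2V664E mutants, with overlap between neighbours of a line and none between the lines. Every library of the dnEGFR line lay above every library of the ErbB2V664E line, as for 9.44% of the loci tested.

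Between the control groups Erbb4 was 1.15 higher in dnEGFR controls than in ErbB2V664E controls (SE 0.53, adjusted p = 0.152), which did not pass. Without the low litter the difference was 0.59 (SE 0.11, adjusted p = 0.0165), and over all alternatives the adjusted p ran from 0.0165 to 0.440. The interneuron markers (8) summed to 265 to 311 FPKM in dnEGFR mutants, 264 to 296 FPKM in dnEGFR controls, 267 to 349 FPKM in ErbB2V664E mutants and 325 to 381 FPKM in ErbB2V664E controls. None was called in either line (limma). In the dnEGFR and ErbB2V664E lines 1 and 0 had an unadjusted p under 0.05, beside 786 and 1675 of the 13803 loci tested. Between the control groups 3 of the 8 were called, where 20.0% of all loci were called. Pvalb was higher in dnEGFR controls (1.18, adjusted p = 0.0243), and Lhx6 (-0.66, adjusted p = 0.0413) and Npy (-0.39, adjusted p = 0.0262) were lower. Striatal neuron markers were positive for 8 of 8 genes in dnEGFR mutants, with 141 to 378 FPKM in dnEGFR mutants and 111 to 183 FPKM in dnEGFR controls. These sums overlapped, and 0 of the 8 genes were called, with 1 at an unadjusted p under 0.05 (limma). The part of either marker list in the Erbb4 values was not tested.

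**Figure D3:**
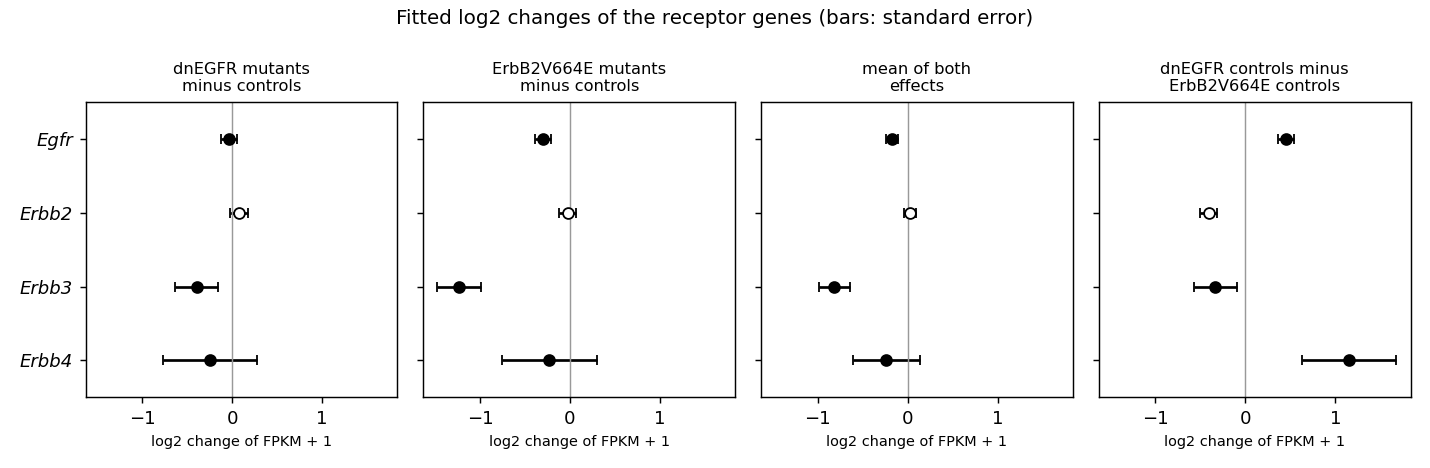
Change of each receptor gene in log2(FPKM + 1), with SE from the fit over 12 libraries. Panels show mutant minus control in each line, the mean of both effects, and dnEGFR controls minus ErbB2V664E controls. The open symbol for Erbb2 is from the fit without the filter on low values. Erbb3 in ErbB2V664E mutants (-1.23) lies farthest from 0, and no mutant to control change passed the adjusted threshold. Between the control groups Egfr passed (0.45, adjusted p = 0.00731, limma). Erbb2 passed there in the fit without the filter (-0.41, adjusted p = 0.0390, limma).

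Taking the 3 tested members together, limma called 0 in the dnEGFR effect, where 0.0942% of all loci were called, and 0 in the ErbB2V664E effect, where 0.275% were called. At an unadjusted p under 0.05 the counts were 0 and 2 members (Egfr and Erbb3, both lower in ErbB2V664E mutants), against 786 and 1675 of the 13803 loci tested. The difference of the effects called 0 members (0.116% of loci), and the mean of both called 0 (0.254% of loci). Under an unadjusted 0.05 they had 1 and 2 members, against 1244 and 1246 of the loci tested. Between the control groups 1 member was called, where 20.0% of all loci were called. All 3 tested members had negative changes in both lines, beside medians of 0.01 and 0.00 over all loci. A fit with the litter as a block called 3 loci in the dnEGFR effect and 7 in the ErbB2V664E effect, where the fit without it called 13 and 38. In both fits 0 receptor genes were called.

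The make-up of the family within a library was compared as shares of the summed level, and no share passed its test. The 4 levels summed to 7.61 ± 2.81 FPKM in ErbB2V664E mutants and 14.0 ± 1.44 FPKM in ErbB2V664E controls, without overlap, and to 13.4 ± 1.34 FPKM in dnEGFR mutants and 16.2 ± 0.959 FPKM in dnEGFR controls (SD, n = 3 each), also without overlap. Erbb3 made up 41.3% ± 5.52 of the sum in ErbB2V664E mutants and 61.0% ± 11.8 in ErbB2V664E controls (exact permutation p = 0.1). Erbb2, whose level did not differ by more than its spread, made up 12.7% ± 5.77 in ErbB2V664E mutants and 6.43% ± 0.292 in ErbB2V664E controls (exact permutation p = 0.1). For both shares the groups did not overlap, and 0.1 is the smallest p possible. Adjusted over the 8 share tests these values were 0.4. The Erbb2 share differed by 6.31 percentage points, and by 3.03 without ErbB2V664E mutant 3.

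The other shares overlapped between mutants and controls. Egfr made up 20.5% ± 9.91 in ErbB2V664E mutants and 13.9% ± 1.05 in ErbB2V664E controls (exact permutation p = 0.3), and Erbb4 25.5% ± 18.4 and 18.6% ± 12.7 in the same order (exact permutation p = 0.5). In the dnEGFR line Erbb3 and Erbb4 held similar shares. Erbb3 made up 35.6% ± 8.92 in dnEGFR mutants and 40.1% ± 4.98 in dnEGFR controls (exact permutation p = 0.6), and Erbb4 38.6% ± 5.35 and 38.7% ± 2.76 (exact permutation p = 0.9). Egfr (21.9% ± 3.40 in dnEGFR mutants and 18.6% ± 1.65 in dnEGFR controls) and Erbb2 (3.89% ± 1.09 and 2.66% ± 0.592) gave exact permutation p = 0.3 and 0.2. Leaving out 1 library moved the Egfr difference in the ErbB2V664E line to between 0.80 points (without mutant 3) and 9.43 points, and the Erbb3 difference in the dnEGFR line to between -9.25 points (without mutant 1) and -0.40 points (without mutant 2). Since shares sum to the whole, they are not independent of one another.

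**Figure D4:**
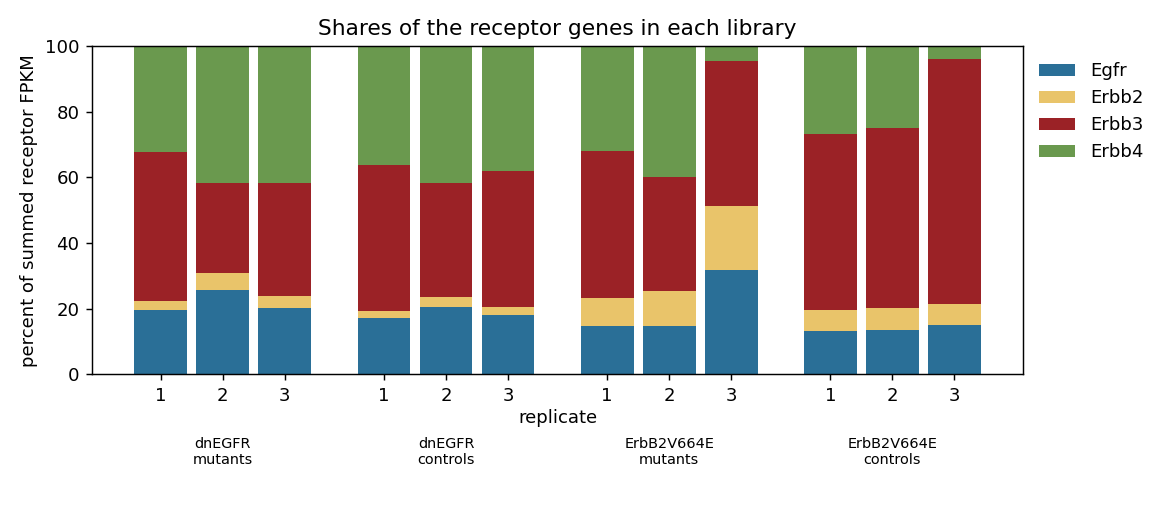
Share of each receptor gene in the summed FPKM of the 4 genes, in percent, 1 bar per library. The Erbb3 share is 34.9% to 44.8% in ErbB2V664E mutants and 53.8% to 74.7% in ErbB2V664E controls, and Erbb4 nearly vanishes from both libraries of the third ErbB2V664E litter.

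The genes whose log2 levels followed each receptor most closely over the 12 libraries were taken from 12218 tested loci with a single symbol, by Pearson's r. These values are descriptions, since libraries share their line and litter. For Erbb3 they were Mag (r = 0.935), the junction protein gene Pkp4 (0.925) and the axon guidance receptor gene Robo3 (0.914). After removing the group means, r was 0.774, 0.846 and 0.738, so part of the likeness to Erbb3 lay within groups. For Erbb4 they were Rala (0.963), a small GTPase gene, Gm6793 (0.949) and Hccs (0.94). Without the low litter, these fell to 0.635, 0.669 and 0.877 over 10 libraries. For Egfr they were Hbs1l (0.975), Fam208b (0.971) and Zfp943 (0.971), and for Erbb2 Lclat1 (0.963), Pacs1 (0.958) and Rab39b (0.955). After removing the group means these 6 had r of 0.574 to 0.874.

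The rest of the pathway was described from 5 lists. In both lines limma called 0 genes of any list. Of 11 ErbB ligand genes, 10 were in the table and 5 were tested, with 2 negative changes in each line and medians of 0.07 in dnEGFR mutants and 0.08 in ErbB2V664E mutants. At an unadjusted p under 0.05 there were 0 and 2. For this and the following lists, 786 and 1675 of the 13803 loci tested reached that level in the dnEGFR and ErbB2V664E effects. Tgfa, an EGFR ligand, had 6.91 ± 0.903 FPKM in ErbB2V664E mutants and 10.6 ± 2.06 in ErbB2V664E controls (change -0.54, adjusted p = 0.265), and 9.97 ± 2.44 FPKM in dnEGFR mutants and 7.82 ± 1.01 in dnEGFR controls (0.29, adjusted p = 0.964). Hbegf, which binds EGFR and ErbB4, had 3.43 ± 0.855 FPKM in ErbB2V664E mutants and 4.55 ± 0.0386 in ErbB2V664E controls (-0.34, adjusted p = 0.307). Nrg1, the neuregulin that binds ErbB3 and ErbB4, had 0.655 ± 0.149 FPKM in dnEGFR mutants and 1.22 ± 0.457 in dnEGFR controls (-0.41, adjusted p = 0.894), and 2.91 ± 0.541 FPKM in ErbB2V664E mutants and 2.25 ± 0.652 in ErbB2V664E controls (0.28, adjusted p = 0.611). The symbol Nrg1 was carried by 8 loci, of which the highest was read. Nrg3, a ligand of ErbB4, changed by -0.31 in dnEGFR mutants (adjusted p = 0.975).

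Of 10 genes for the cleavage of ligands and receptors, 9 were tested, with medians of 0.09 in dnEGFR mutants and -0.04 in ErbB2V664E mutants and 0 and 2 genes at an unadjusted p under 0.05. Adam17, the sheddase of EGFR ligands and neuregulins, had 2.21 ± 0.671 FPKM in ErbB2V664E mutants and 4.11 ± 0.172 in ErbB2V664E controls (SD, n = 3 each). All 3 mutants were below all 3 controls, as at 8.96% of the loci tested in this line, and the change of -0.69 (adjusted p = 0.143) did not pass. Bace1, a protease that cleaves neuregulin 1, gave -0.18 in ErbB2V664E mutants (adjusted p = 0.899) and 0.20 in dnEGFR mutants (adjusted p = 1). In dnEGFR mutants Adam10, another sheddase, had 13.8 ± 5.34 FPKM against 17.1 ± 0.630 in dnEGFR controls (-0.36, adjusted p = 0.964), and Adam17 gave 0.19 (adjusted p = 0.987).

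Of 25 adaptors and proximal effectors, 23 were tested, with 10 negative in each line, medians of 0.03 in dnEGFR mutants and 0.02 in ErbB2V664E mutants, and 1 gene each at an unadjusted p under 0.05. Ptpn11, the phosphatase SHP2 that passes signals from receptors to Ras, had 32.3 ± 1.80 FPKM in ErbB2V664E mutants and 23.9 ± 2.56 in ErbB2V664E controls (0.42, adjusted p = 0.247). The kinase gene Src had 7.14 ± 2.10 FPKM in ErbB2V664E mutants and 4.64 ± 0.835 in ErbB2V664E controls (0.51, adjusted p = 0.459), and the docking protein gene Gab1 gave -0.36 (adjusted p = 0.607). In dnEGFR mutants the values farthest from 0 were Pik3r3 at -0.41 (adjusted p = 0.987, at a locus joined with other genes), Gab2 at 0.29 (adjusted p = 0.987) and Stat3 at 0.27 (adjusted p = 0.918).

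Of 27 genes for receptor inhibition and turnover, 26 were tested, with 13 negative in each line and medians of -0.01 in both. At an unadjusted p under 0.05 there were 0 in dnEGFR mutants and 3 in ErbB2V664E mutants. Cbl, a ubiquitin ligase that sends EGFR to degradation, had 1.54 ± 2.11 FPKM in ErbB2V664E mutants and 4.95 ± 0.681 in ErbB2V664E controls (-1.54, adjusted p = 0.195), and was the gene of the list called without ErbB2V664E mutant 1. Socs5, which promotes EGFR degradation, had 11.6 ± 0.469 FPKM in ErbB2V664E mutants and 1.29 ± 0.140 in ErbB2V664E controls (2.46, adjusted p = 0.196). In the dnEGFR line Socs5 ranged from 0.233 to 1.96 FPKM in mutants and from 0.196 to 14.1 FPKM in controls (-1.24, adjusted p = 0.952), so the range within the dnEGFR controls was wider than the gap between the ErbB2V664E groups. Errfi1, whose product inhibits the EGFR kinase, had 2.80 ± 0.930 FPKM in ErbB2V664E mutants and 8.03 ± 5.83 in ErbB2V664E controls (-0.93, adjusted p = 0.659). In dnEGFR mutants Errfi1 gave 0.42 and Cbl 0.33 (adjusted p = 1 for both).

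Of 18 ERK pathway target genes, which respond to the kinase cascade downstream of the receptors, 17 were tested, with 8 negative in each line and medians of 0.06 in dnEGFR mutants and 0.04 in ErbB2V664E mutants. At an unadjusted p under 0.05 there were 1 and 0. In dnEGFR mutants Fos had 3.43 ± 1.42 FPKM against 6.41 ± 2.05 in dnEGFR controls (-0.75, adjusted p = 0.865), Egr1 gave -0.57 and Fosl1 -0.43 (adjusted p = 1 for both). In ErbB2V664E mutants Phlda1 gave 0.76 (adjusted p = 0.485), Etv5 had 18.6 ± 0.516 FPKM against 13.9 ± 6.21 in ErbB2V664E controls (0.50, adjusted p = 0.524), and Egr1 had 75.3 ± 19.8 FPKM against 102 ± 23.8 (-0.44, adjusted p = 0.898). For Egr1 the spread within groups was close to the difference.

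**Figure D5:**
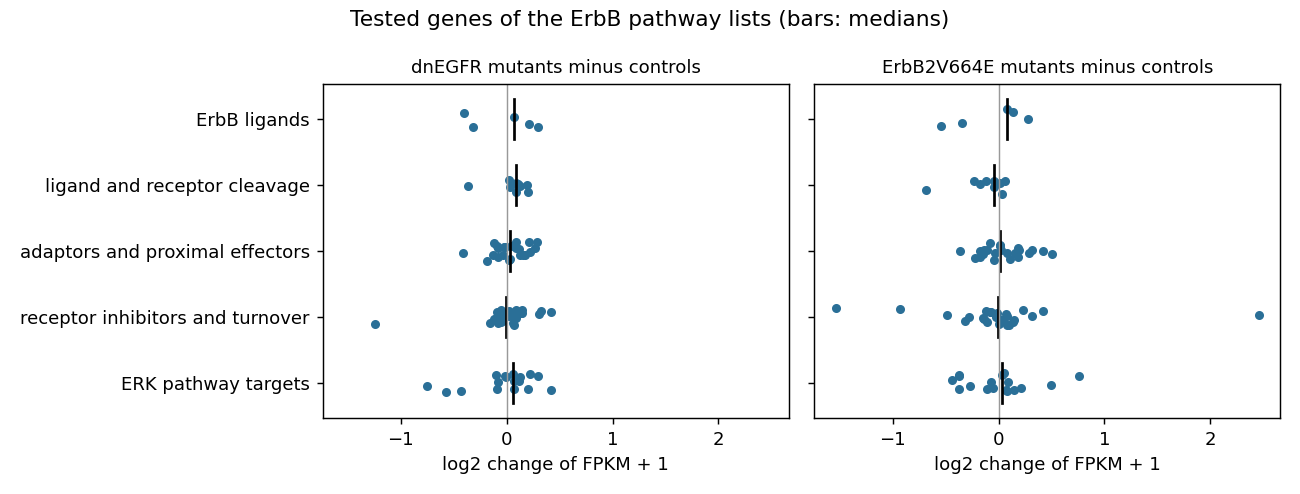
Change in log2(FPKM + 1), mutant minus control, of each tested gene in 5 ErbB pathway lists, for dnEGFR (left) and ErbB2V664E (right); vertical bars are list medians. Medians lie between -0.04 and 0.09, and the genes farthest from 0 are Socs5 (2.46) and Cbl (-1.54) in ErbB2V664E mutants.

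Some pathway genes were called between the control groups, as were 20.0% of all loci, and the lists were not tested against that share. No ligand gene was called there by limma, with 3 of 5 at an unadjusted p under 0.05, beside 4729 of the 13803 loci tested. Of the cleavage genes, Psenen, a gamma-secretase subunit, was higher in dnEGFR controls (14.1 ± 1.76 FPKM, against 9.31 ± 0.421 in ErbB2V664E controls; 0.54, adjusted p = 0.00428), and Rhbdf1 was lower (-0.56, adjusted p = 0.00331). The adaptor list had 4 of 23 genes called, all lower in dnEGFR controls: Pik3r2 (-0.58), Stat3 (-0.52), Stat5b (-0.43) and Sos2 (-0.36), with adjusted p-values of 0.00291 to 0.0307. The inhibitor and turnover list had 7 of 26 called. Lrig2 (0.85), Eps15 (0.58) and Itch (0.34) were higher in dnEGFR controls, and Rab5a (-0.85), the ubiquitin ligase gene Cblb (-0.69), Hgs (-0.48) and Usp8 (-0.33) were lower. Of the ERK targets Spred2, an inhibitor of the cascade, was lower in dnEGFR controls (-0.85, adjusted p = 0.0265). As for Egfr, line, transgene, age and doxycycline time cannot be told apart in these differences.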

How the data were processed

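Per the labels' protocols, polyadenylated RNA of each mouse was fragmented, primed with random hexamers and sequenced in paired ends, with no step that keeps the strand. The deposited FPKM values were computed by the authors with StringTie, as the design text of the series says, and HISAT appears in the submitters' processing notes. Versions, genome build and annotation were not stated there. GENCODE M21 held 99.5% of the 91226 Ensembl transcript identifiers and supplied the sequences. Depth was estimated from steps of 1 fragment in 14221 loci with 1 transcript (tolerance 0.01).

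From the FPKM, log2(FPKM + 1) was fitted with limma 3.58.1 in R 4.3.3 with 1 mean per group over 12 libraries and a variance trend (8 residual degrees of freedom), two-sided, for 5 comparisons, with adjustment over 13803 loci within each. Exact permutation tests used scipy 1.17.1. P-values reflect the spread between mice. On simulated data at this size, 68 of 100 loci changed by 1 log2 unit and 93 of 100 changed by 2 were recovered in the dnEGFR effect. There 8 unchanged loci were called. The changed loci were drawn from those with a mean log2(FPKM + 1) above 2, which Egfr and Erbb2 did not reach. These rates therefore do not give the recovery for Egfr and Erbb2. The labels pair littermates, and deviations from group means correlated at -0.03 to 0.03 within pairs. Beside the 4 receptors, the named genes are those called in each of the 5 pathway lists, or otherwise the 3 with the largest absolute change, and the 3 loci most like each receptor. A gene that this rule would name is not reported here. Members and lists were chosen with earlier results of these data known.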

Additional observations from a re-analysis of the deposited data

How the results depend on the processing

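Of 288 alternative values for the receptor genes' changes, 273 kept the direction and the side of the threshold. Many of these could not change direction. The change within a line stays the same when a library of the other line is left out. It also stays the same without the filter, with the litter block and without the variance trend. In those settings only the adjusted p could move, so the count is not a measure of robustness. With the litter as a replicate block, 3 loci were called in the dnEGFR effect, 7 in the ErbB2V664E effect, 4 in their difference and 5 in their mean, against 13, 38, 16 and 35, and no other receptor call changed; the control comparison cannot be fitted with it. Fitting a line alone gave 22 and 23 loci. Between controls, upper quartile scaling turned the balance of directions, with 1835 loci called higher and 1182 lower in dnEGFR controls, against 1259 and 1502. Leaving out 1 library gave 9 to 36 loci in the dnEGFR effect, 16 to 262 in the ErbB2V664E effect, 15 to 42 in the difference, 20 to 94 in the mean and 1810 to 2787 between controls, with 0 to 1 receptor genes called in the ErbB2V664E effect and in the mean (Erbb3) and 0 to 1 turnover genes. Between controls, 2 receptor genes rather than 1 were called without the filter on low values, and 2 without the low Erbb4 litter, an alternative chosen after seeing the data, which called 1735 loci. The Egfr change in dnEGFR mutants ran from -0.11 to 0.014 when 1 library was left out. For Erbb4 the same ranges were -0.79 to 0.37 in ErbB2V664E mutants, -0.62 to 0.54 for the difference and -0.52 to 0.062 for the mean, and the difference was 0.18 with a pseudocount of 0.1. The Erbb4 share changed by -1.61 to 3.04 percentage points in dnEGFR mutants and by -0.38 to 17.3 in ErbB2V664E mutants. The causes were not tested. Depth limits Erbb2 most.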
